A study of Sus scrofa with 105 samples.

Results

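Frontal lobe libraries of injured piglets given cyclosporine A were compared with those of sham or naive piglets. The comparison rests on 27 of the 105 small RNA libraries of the series, 9 with cyclosporine A (CsA) and 18 sham, and all were chosen by their labels of brain region and group, with no measured value used. The animals were female Sus scrofa, no age is given in the sources used here, and the tissue was formalin-fixed and paraffin-embedded brain. The CsA group had diffuse traumatic brain injury, then intravenous CsA at 20 mg/kg per day from a pump, begun with a loading dose 6 hours after injury and continued as an infusion over 24 hours, and survived 30 hours. The sham or naive group is labelled untreated and survived 0 to 8 days. Injury, drug and survival time therefore differ together between these groups and cannot be told apart in this comparison. The untreated injured group closest in time, 10 frontal libraries at 1 day, was set against the CsA group directly for that reason. Each library is taken as 1 animal from the code in the library name, 9 and 18 animals here, though 2 sham and 2 CsA animals carry codes with the same stem.

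MicroRNAs (miRNAs) are short RNAs that pair with messenger RNAs and lower their translation or stability. Both arms of a hairpin precursor, named 5p and 3p, can yield a mature miRNA, and one arm usually outnumbers the other. In brain, miR-124 and miR-9 are abundant in neurons and neural progenitors, miR-219 and miR-338 drive oligodendrocyte maturation, and let-7 miRNAs are among the most abundant of all. Cyclosporine A, bound to cyclophilin, inhibits the phosphatase calcineurin, which blocks NFAT signalling in T cells, and it also inhibits opening of the mitochondrial permeability transition pore. No miRNA sequence was used here.

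The files gave whole-number counts per mature miRNA. The CsA libraries held 5671999 to 10008390 counts and the sham libraries 98996 to 13194782, and the geometric mean total was 2.18 times as high with CsA (exact permutation test, 2-sided, p = 0.00881, the same after adjustment over 3 tests). Among animals whose codes begin with 11 (4 CsA, 6 sham) the ratio was 2.98, and among those beginning with 12 or 13 (5 and 5) it was 1.06. Sham replicates 15 and 16 stood apart with 98996 and 689899 counts. The let-7 family took 74.3% ± 2.39 (SD, n = 9) of the counts with CsA and 78.7% ± 3.52 (SD, n = 18) in sham, a difference of -4.37 percentage points (exact permutation p = 0.00241, adjusted p = 0.00362). Within codes beginning with 12 or 13 that difference was -2.22 (exact permutation p = 0.206). Some names hold nearly the same reads. With those merged, the shares over all CsA and sham libraries were 76.8% and 80.4%, a difference of -3.54 (exact permutation p = 0.00391). The letter U stands in all 9 CsA codes and in 6 of the 18 sham codes. Those 6 sham codes begin with 14 or 16, and the CsA codes begin with 11, 12 or 13. No sham animal thus matches a CsA animal in both letter and beginning of the code. Fits within 1 beginning still differ in letter between the groups, and the fit on letter U still differs in beginning. Depth, share and code thus move with the group, and their part in the results below was not tested beyond the fits named there.

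After filtering, 293 miRNAs were tested with edgeR, and 100 of them (34.1%) differed between CsA and sham at a Benjamini-Hochberg adjusted p under 0.05, while 140 had an unadjusted p under 0.05. Of all tested, 42 (14.3%) were higher with CsA and 58 (19.8%) were lower. The miR-9 reads are listed under 3 names and count 3 times among the 42. With the scaling of DESeq2 size factors (RLE) the split was 54 higher and 48 lower, with DESeq2 itself 62 and 52, and with limma voom 51 and 53. All 100 kept their direction under these 3. The main fit held all 52 frontal libraries. With the 27 CsA and sham libraries alone, 281 miRNAs were tested and 71 passed, 26 higher and 45 lower. The higher group changed little in size, with a median of 1.44-fold and 2 miRNAs past 2-fold. The lower group had a median of 1.71-fold and 20 past 2-fold. For none of the 293 miRNAs (0%) were the 9 CsA and 18 sham libraries fully separate. The median log2 fold change over all tested was 0.0078, and 0.063 with RLE scaling.

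**Figure D1:**
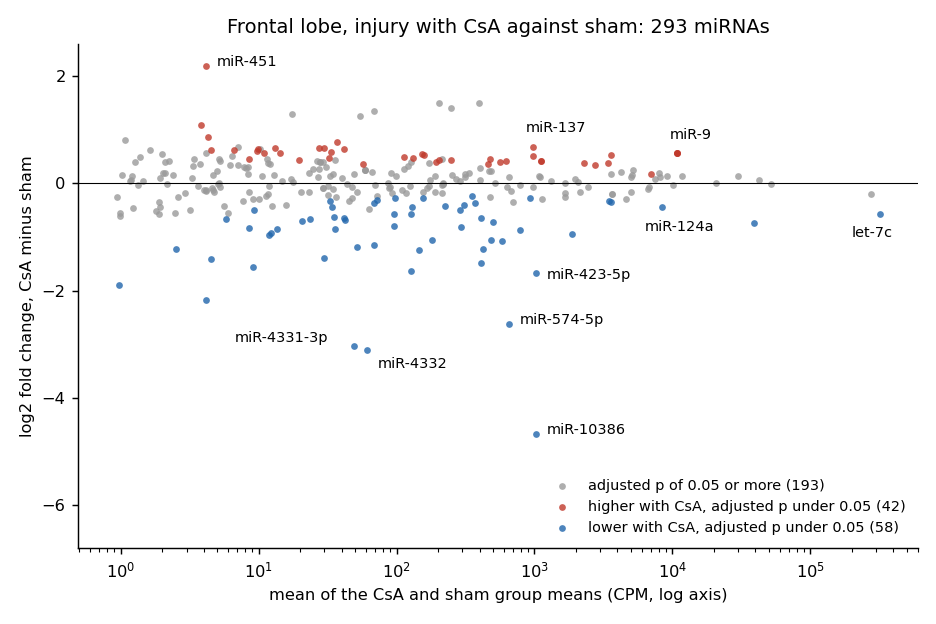
Log2 fold change of CsA minus sham in frontal lobe (y axis) against the mean of both group means in CPM (log x axis) for the 293 miRNAs tested, 42 in red higher and 58 in blue lower at adjusted p under 0.05. The lowest blue point is miR-10386 at -4.68 and the highest red point is miR-451 at 2.19.

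Levels below are CPM, counts relative to the library total after trimmed-mean (TMM) scaling, given for each group as the lowest, median and highest library. Values of fixed bulk tissue cannot tell fewer cells of a type from less RNA per cell. Each count of called list members below is to be read against the shares over all tested, also where they are not repeated: 14.3% higher, 19.8% lower and 34.1% in either direction. Of 12 neuron-enriched names tested, miR-137 and miR-9 rose, miR-124a fell and 9 did not pass, near the shares over all tested (14.3% higher, 19.8% lower), and the median log2 fold change was 0.086. miR-137, a regulator of synaptic and neurodevelopmental genes, stood at 642, 1140.4 and 2061 CPM with CsA and at 397, 675 and 1454 CPM in sham. Its level was 1.61-fold higher with CsA (log2 fold change 0.69 (SE 0.17), adjusted p = 0.00216). Of the 9 CsA libraries 8 exceeded the sham median and 2 exceeded every sham library, and the groups overlapped. miR-9, which acts in neural progenitors and neurons, held 9348, 13019.9 and 17869.9 CPM with CsA and 5357, 7049 and 20709.8 CPM in sham. All 9 CsA libraries were above the sham median, 13 sham libraries were below every CsA library, and the fold was 1.48 (log2 fold change 0.56 (SE 0.17), adjusted p = 0.00968).

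miR-124a, the most neuron-specific miRNA of brain, went the other way. It held 5219, 7159.8 and 8496 CPM with CsA against 6157, 9875 and 12241 CPM in sham. All 9 CsA libraries fell under the sham median, 15 sham libraries lay above all CsA libraries, and the level was 1.36-fold lower (log2 fold change -0.44 (SE 0.11), adjusted p = 0.00216). Of the pair miR-132 and miR-212, which share a precursor transcript induced by neuronal activity, the less abundant member was higher: miR-212 held 8.61, 12.1 and 16.6 CPM with CsA and 0, 7.76 and 16.7 CPM in sham (log2 fold change 0.64 (SE 0.24), adjusted p = 0.0339). The call for miR-212 was lost when CsA replicate 1, 4, 5 or 8 or sham replicate 3, 12 or 15 was left out, with an adjusted p of up to 0.0738. For miR-132 the libraries held 135, 163 and 179 CPM with CsA and 77.9, 174 and 221 CPM in sham, a log2 difference of -0.091 with a 95% interval of -0.29 to 0.11, which did not pass.

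Of 3 oligodendrocyte miRNAs, 1 was lower and 2 did not pass, beside 14.3% higher and 19.8% lower over all tested. Their median log2 fold change was -0.30. miR-219b-3p, the abundant miR-219 product of myelinating cells, held 288, 326 and 393 CPM with CsA and 287, 415 and 545 CPM in sham. It was 1.29-fold lower (log2 fold change -0.37 (SE 0.082), adjusted p = 0.00111), with all 9 CsA libraries under the sham median and 13 of 18 sham libraries above the whole CsA range. miR-338, its partner in oligodendrocyte maturation, gave 837, 1031 and 1316 CPM with CsA and 761, 1209.6 and 2040.2 CPM in sham and missed the threshold (log2 fold change -0.30 (SE 0.12), adjusted p = 0.0563), though it passed in 11 of the 27 fits that each left out 1 library. miR-219a was near the floor of detection in both groups, at 0.889, 1.97 and 3.47 CPM and 0, 1.85 and 3.39 CPM, and did not differ detectably (log2 difference 0.10, 95% interval -0.56 to 0.75).

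Of 9 miRNAs associated with astrocytes, 2 were higher and none was lower, beside 14.3% and 19.8% over all tested, and the median log2 fold change was 0.27. miR-27a, which belongs to the miR-23a cluster, held 29.2, 44.9 and 95.2 CPM with CsA and 11.6, 27.9 and 78.6 CPM in sham, with every CsA library above the sham median. It was 1.57-fold higher (log2 fold change 0.65 (SE 0.22), adjusted p = 0.0199), a call lost without CsA replicate 4 or 5 (adjusted p up to 0.0991). miR-29a-3p, a repressor of collagen and other matrix genes, held 1834, 2548 and 3400.4 CPM with CsA and 1235, 1943 and 2977 CPM in sham (log2 fold change 0.39 (SE 0.10), adjusted p = 0.00439), with 7 of 9 CsA libraries above the sham median. The most abundant member, miR-26a, gave 17424, 21306 and 22874 CPM and 16434, 20208 and 24558 CPM and a log2 difference of 0.0075 (95% interval -0.13 to 0.15).

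Among miRNAs of microglia and inflammation, none of 5 tested passed at adjusted p under 0.05. miR-21-5p, which rises in many injured tissues, held 91.7, 141 and 220.3 CPM with CsA and 57.5, 93.5 and 168 CPM in sham. 8 CsA libraries were above the sham median and the log2 difference of 0.33 (95% interval 0.044 to 0.62) had an adjusted p of 0.0653, which passed without CsA replicate 2 or 3 or sham replicate 1, 9 or 18 and passed with RLE scaling and DESeq2. miR-155-5p, a regulator of inflammatory signalling, stood at 236, 286 and 362 CPM with CsA and 198, 277 and 371 CPM in sham. Its log2 difference of 0.045 did not pass (95% interval -0.15 to 0.24). The NF-kB feedback miRNAs gave log2 differences of 0.050 (95% interval -0.65 to 0.75) for miR-146a-5p and 0.13 (95% interval -0.17 to 0.43) for miR-146b, neither past the threshold.

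The blood-cell miRNAs split. miR-142-5p, of a precursor restricted to blood lineages, held 17.6, 29.8 and 69.7 CPM with CsA and 0, 21.8 and 39.0 CPM in sham, and 3 CsA libraries exceeded every sham library. It was 1.58-fold higher (log2 fold change 0.66 (SE 0.21), adjusted p = 0.0146), but not without CsA replicate 5, where the adjusted p was 0.102. Its other arm, miR-142-3p, held 17.3, 30.5 and 58.1 CPM and 15.0, 30.3 and 62.1 CPM, with a log2 difference of -0.040 (95% interval -0.47 to 0.39). miR-223, a myeloid miRNA, reached 4.12, 6.13 and 7.92 CPM with CsA and 0, 4.64 and 8.43 CPM in sham and did not pass (log2 fold change 0.45 (SE 0.22), adjusted p = 0.0952). Of the 5 leukocyte names only miR-142-5p passed, and their median log2 fold change of -0.040 turned to 0.0064 with RLE scaling.

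The erythrocyte pair moved in opposite directions. miR-451, made without Dicer and abundant in red cells, held 0.533, 1.36 and 25.1 CPM with CsA and 0, 0.530 and 9.36 CPM in sham, a 4.58-fold increase (log2 fold change 2.19 (SE 0.53), adjusted p = 0.00216). Its level was uneven within the CsA group: 2 libraries exceeded every sham library while the median was 1.36 CPM, and the call held in all 27 fits that left out 1 library. miR-486, also plentiful in red cells, held 51.6, 90.9 and 183 CPM with CsA and 47.0, 148 and 311 CPM in sham and was 1.48-fold lower (log2 fold change -0.57 (SE 0.22), adjusted p = 0.0356). The miR-486 call was lost without CsA replicate 1, 3, 4, 5, 6 or 8 or sham replicate 13 or 16 (adjusted p up to 0.101) and with RLE scaling.

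**Figure D2:**
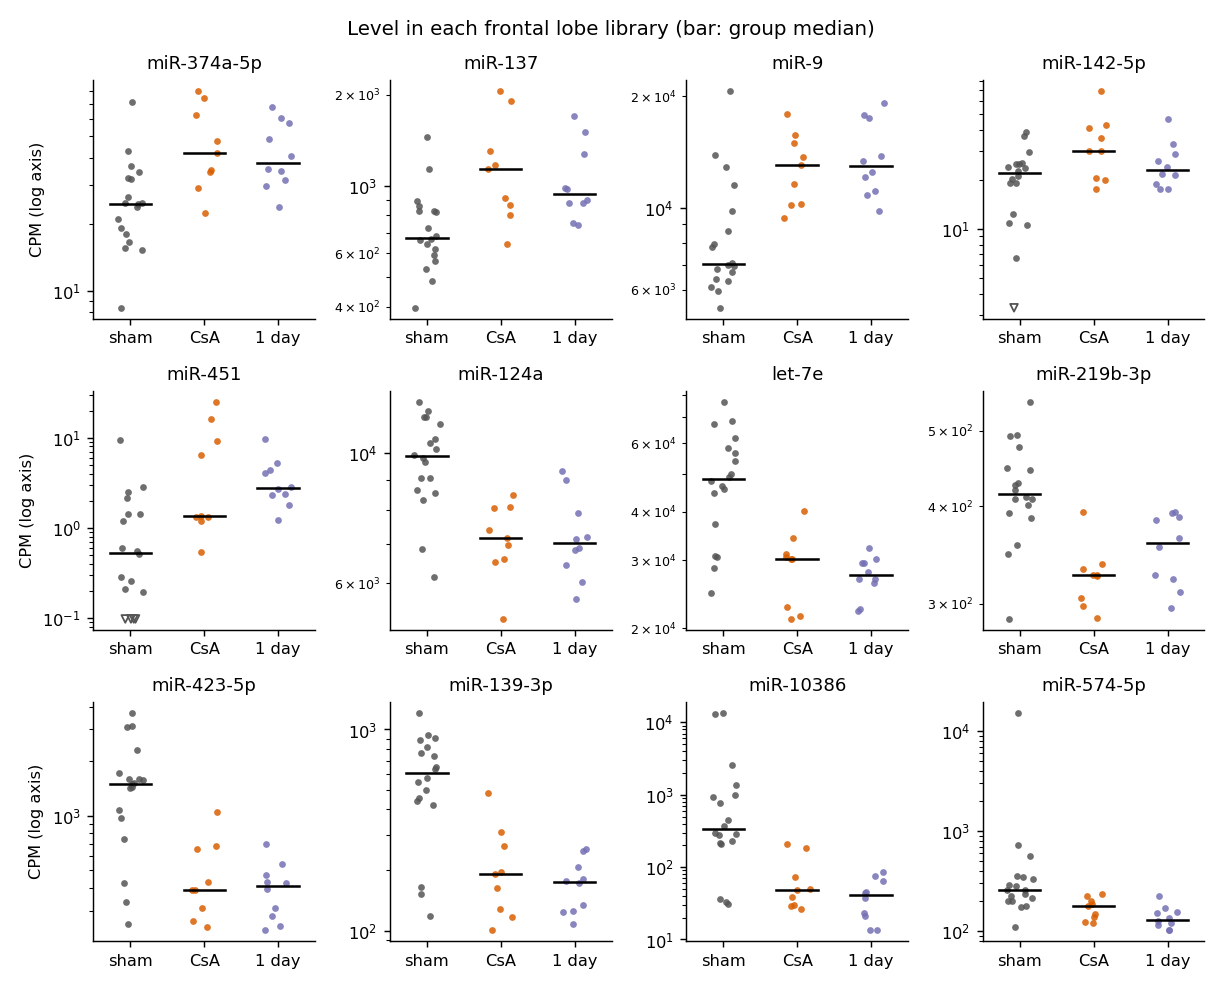
CPM (log y axis) of 12 miRNAs in each frontal lobe library of the sham (18), CsA (9) and untreated 1 day (10) groups, with the group median as a bar and open triangles for libraries at 0. CsA points sit beside the 1 day points in each panel, and overlap the sham points in each.

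Of 5 endothelial miRNAs, 1 was higher and 1 was lower, beside 14.3% higher and 19.8% lower over all tested. With RLE scaling 2 were higher and none was lower. The endothelial miR-126 precursor gave miR-126-3p at 4233, 5042 and 6929 CPM with CsA and 2694, 4867 and 6945 CPM in sham, with no detectable difference (log2 0.12, 95% interval -0.10 to 0.34). Its 5p arm was 1.33-fold higher (log2 fold change 0.41 (SE 0.14), adjusted p = 0.0202), at 450.5, 631 and 1173 CPM against 309, 504 and 1081 CPM, and the call was lost without CsA replicate 4 or 5 or sham replicate 2 (adjusted p up to 0.108). miR-221-3p, of endothelium and smooth muscle, was 1.18-fold lower (log2 fold change -0.24 (SE 0.091), adjusted p = 0.0339), and lost its call in 10 of the 27 fits that left out 1 library (without CsA replicate 1, 4, 6 or 7 or sham replicate 5, 13, 14, 16, 17 or 18, adjusted p up to 0.117). Of 6 miRNAs of mural cells and fibroblasts, 2 were higher and none was lower, beside the same shares over all tested. miR-143-3p, the smooth muscle miRNA, held 2558, 3511 and 6916 CPM with CsA and 1495, 2823 and 4881 CPM in sham (log2 fold change 0.53 (SE 0.15), adjusted p = 0.00634), with 8 of 9 CsA libraries above the sham median. miR-199b-5p held 8.19, 12.5 and 22.0 CPM and 0, 7.63 and 19.1 CPM and was 1.49-fold higher (log2 fold change 0.57 (SE 0.22), adjusted p = 0.0339), a call lost without CsA replicate 1, 4, 5 or 6 or sham replicate 2, 8, 13 or 15 (adjusted p up to 0.116).

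Markers of choroid plexus and epithelium varied between libraries, and 1 of 2 choroid plexus miRNAs was higher. miR-204, abundant in choroid plexus, held 103, 126 and 186 CPM with CsA and 31.1, 81.8 and 159 CPM in sham and was 1.41-fold higher (log2 fold change 0.50 (SE 0.17), adjusted p = 0.0217), except without CsA replicate 1 or 4 (adjusted p up to 0.0732). The summed level of 6 epithelial and sensory miRNAs (the miR-200 and miR-183 groups) ran from 132 to 2803 CPM over the CsA libraries and from 2.77 to 2320.3 CPM over the sham libraries. None of the 6 passed in edgeR's test, with RLE scaling or with DESeq2, although their median log2 fold change was 1.38. With limma voom miR-182 (2.71, adjusted p = 0.0347), miR-96-5p (2.90, 0.0429), miR-200b (2.96, 0.0434), miR-429 (3.10, 0.0454) and miR-183 (2.86, 0.0479) passed, but not miR-141 (2.51, 0.0513). The most abundant, miR-182, gave 50.9, 696 and 1113 CPM with CsA and 0, 57.0 and 848 CPM in sham (log2 fold change 1.49 (SE 0.96), adjusted p = 0.211). Their part in the other results was not tested. Of 3 muscle miRNAs 1 passed: miR-206 was 1.55-fold lower (log2 fold change -0.63 (SE 0.21), adjusted p = 0.0143), while miR-1 gave a log2 difference of 0.40 that did not pass (adjusted p = 0.0682). The liver miRNA miR-122-5p gave -0.48 (adjusted p = 0.0605), passing in 10 of the 27 fits that left out 1 library.

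Of 5 tested miRNAs that have been linked to calcineurin and NFAT in heart or immune cells, the drug's pathway, 1 was higher, 1 was lower and 3 did not pass. The shares over all tested were 14.3% higher and 19.8% lower. miR-199b-5p, higher here, is a transcriptional target of NFAT in heart. miR-184 held 16.3, 31.4 and 49.9 CPM with CsA and 25.4, 48.2 and 122 CPM in sham and was 1.61-fold lower (log2 fold change -0.68 (SE 0.23), adjusted p = 0.0159), with an adjusted p of 0.0514 without CsA replicate 4. Against untreated injury at 1 day the log2 differences were 0.046 (95% interval -0.43 to 0.53) for miR-199b-5p and 0.23 (95% interval -0.26 to 0.73) for miR-184, and neither passed. miR-210, the hypoxia-induced miRNA, did not pass (39.1, 51.8 and 68.8 CPM with CsA and 28.2, 44.8 and 83.9 CPM in sham, log2 0.17, 95% interval -0.10 to 0.44).

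Among miRNAs past the threshold with a mean of at least 10 CPM, the largest increase was that of miR-374a-5p, and both arms of its precursor rose. miR-374a-5p held 22.5, 41.7 and 80.3 CPM with CsA and 8.37, 24.8 and 71.5 CPM in sham, 1.71-fold higher (log2 fold change 0.77 (SE 0.22), adjusted p = 0.00634). miR-374a-3p held 28.2, 41.1 and 58.4 CPM and 13.2, 22.7 and 72.2 CPM (log2 fold change 0.58 (SE 0.18), adjusted p = 0.00968). Of the 9 CsA libraries, 8 lay above the sham median for the 5p arm and 9 for the 3p arm, and both calls held in all 27 fits that left out 1 library. With log10 total as a covariate neither passed (5p 0.57, adjusted p = 0.089, and 3p 0.51, adjusted p = 0.071). miR-505 held 9.97, 15.9 and 27.4 CPM with CsA and 0, 9.22 and 21.6 CPM in sham (log2 fold change 0.65 (SE 0.21), adjusted p = 0.0144), and missed the threshold without CsA replicate 4 (adjusted p = 0.066). miR-17-3p, the lesser arm of the proliferation-linked miR-17-92 cluster, held 23.4, 35.4 and 51.7 CPM and 11.6, 19.8 and 46.7 CPM (log2 fold change 0.66 (SE 0.18), adjusted p = 0.00534), with 13 sham libraries below every CsA library. The more abundant arm miR-17-5p did not pass (log2 -0.086, adjusted p = 0.661).

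Within families, miRNAs of similar sequence did not all move alike, and reads may be shared between close members. The let-7 miRNAs restrain growth and stem-cell genes. Of 10 let-7 and miR-98 names tested, let-7e and let-7c were lower and none was higher, beside 19.8% and 14.3% over all tested. With RLE scaling 1 was higher and 2 were lower. let-7c held 200247, 272648 and 303734 CPM with CsA and 209040, 346105 and 686978 CPM in sham (log2 fold change -0.57 (SE 0.17), adjusted p = 0.0082). let-7e held 21149, 30271 and 40246 CPM and 24645, 48654 and 76781 CPM, 1.68-fold lower (log2 fold change -0.75 (SE 0.17), adjusted p = 0.00113), and 3 CsA libraries were below every sham library. For let-7a, the other most abundant member, the log2 difference was -0.20 (95% interval -0.40 to -0.0070), with all 9 CsA libraries under the sham median and an adjusted p of 0.0907. let-7f-5p (-0.017, 95% interval -0.22 to 0.18) and let-7g (0.069, 95% interval -0.14 to 0.28) did not differ detectably.

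Of 10 miR-30 names, 4 were higher, all of them 5p arms, and 3 were lower, all of them 3p arms; with RLE scaling 4 were higher and 1 was lower, and without sham replicates 15 and 16 2 were higher and 3 were lower. Over all tested 14.3% were higher and 19.8% lower. Of the 7 calls, those of miR-30a-5p and miR-30c-1-3p held in all 27 fits that left out 1 library, while miR-30b-5p was called in 12 (adjusted p up to 0.131), miR-30c-5p in 16 (up to 0.128), miR-30b-3p in 20 (up to 0.0768) and miR-30c-3p in 23 (up to 0.0796). miR-30b-5p lost its call without CsA replicate 1, 4, 5 or 6 or sham replicate 2, 3, 6, 7, 8, 11, 12, 13, 15, 16 or 17. miR-30c-5p lost it without CsA replicate 1, 4, 5, 6 or 8 or sham replicate 2, 3, 12, 13, 16 or 17. For the 3p arms these were CsA replicate 1, 4, 5, 6 or 8 or sham replicate 3 or 16 for miR-30b-3p, and CsA replicate 1, 4, 5 or 6 for miR-30c-3p. miR-30a-5p held 3010.5, 4039 and 4518 CPM with CsA and 2134, 2903 and 4228 CPM in sham (log2 fold change 0.38 (SE 0.11), adjusted p = 0.00634). miR-30e-5p gave a log2 fold change of 0.35 (adjusted p = 0.0276), lost without CsA replicate 1, 4 or 5 or sham replicate 2, 8, 12 or 15 (adjusted p up to 0.0938). miR-30d, the most abundant, gave -0.30 and missed the threshold (adjusted p = 0.0514). Of 9 miRNAs of the miR-15/16 family and of miR-103 and miR-107, which bind cell-cycle messenger RNAs, 4 were higher and none was lower, beside 14.3% and 19.8% over all tested. With log10 total as a covariate none of the 9 passed, and without sham replicates 15 and 16 3 were higher. miR-15b held 185, 240.3 and 296 CPM with CsA and 77.9, 165 and 257 CPM in sham (log2 fold change 0.44 (SE 0.13), adjusted p = 0.00677). miR-107 held 1072, 1327 and 1554 CPM and 592, 961 and 1338 CPM (log2 fold change 0.43 (SE 0.13), adjusted p = 0.0082), and each of the 9 CsA libraries was above the sham median for both. miR-16 was 1.12-fold higher at the edge of the threshold (adjusted p = 0.0487), called in 9 of the 27 fits that left out 1 library.

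In the families of miR-130 and miR-148 3 of 6 were higher and none was lower, beside 14.3% and 19.8% over all tested, and with log10 total as a covariate none passed. miR-130a held 492.8, 674.2 and 868.6 CPM with CsA and 332, 461 and 769 CPM in sham (log2 fold change 0.40 (SE 0.12), adjusted p = 0.00734). miR-130b-3p held 404, 504 and 681 CPM and 187, 402 and 592 CPM (log2 fold change 0.37 (SE 0.11), adjusted p = 0.0114), with all 9 CsA libraries above the sham median for both miRNAs. The scarce arm miR-130b-5p also rose (log2 0.86, adjusted p = 0.0323), but not without CsA replicate 1, 4 or 5 (adjusted p up to 0.118). The miR-17-92 and paralogous clusters had 2 higher and 3 lower of 13, near the shares over all tested. miR-20a-3p reached 3.09, 6.02 and 7.05 CPM with CsA and 0, 1.62 and 7.54 CPM in sham, 2.12-fold higher (log2 fold change 1.08 (SE 0.30), adjusted p = 0.00578). Its more abundant partner arm miR-20a-5p did not pass (log2 0.075, adjusted p = 0.65). miR-18b held 4.30, 5.66 and 7.84 CPM and 4.77, 10.0 and 31.1 CPM, 1.77-fold lower (log2 fold change -0.82 (SE 0.19), adjusted p = 0.00113), with 15 sham libraries above every CsA library. In the miR-181 family 1 of 5 passed, miR-181c (log2 0.41, adjusted p = 0.0125), and in the miR-99/100 and miR-125 families 1 of 6, miR-99a-3p (log2 0.46, adjusted p = 0.0134), which missed it without CsA replicate 4 (adjusted p = 0.0612). The more abundant arm miR-99a-5p did not pass (log2 0.023, adjusted p = 0.887).

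Neighbouring precursors also differed in direction. In the cluster of miR-424, miR-503, miR-542 and miR-450 2 of 10 names were higher and 2 were lower, beside 14.3% and 19.8% over all tested. miR-542-5p held 50.0, 69.3 and 91.4 CPM with CsA and 56.4, 118 and 234 CPM in sham, 1.73-fold lower (log2 fold change -0.79 (SE 0.17), adjusted p = 0.00111), and 13 sham libraries were above all CsA libraries. miR-424-5p of the same cluster was 1.35-fold higher (adjusted p = 0.0268), a call lost without CsA replicate 1, 4 or 5 or sham replicate 2 or 15 (adjusted p up to 0.111). In the imprinted DLK1-DIO3 cluster, rich in neuronal miRNAs, 1 of 18 was higher and 3 were lower, neither above those shares over all tested. miR-381-3p rose (log2 0.41, SE 0.12, adjusted p = 0.00634), and miR-370 (log2 -0.85, adjusted p = 0.00578), miR-432-5p (log2 -0.34, adjusted p = 0.0131) and miR-382 (log2 -0.33, adjusted p = 0.0144) fell. Of 2 miRNAs of HOX clusters 1 passed, miR-10a-5p, which was 2.33-fold lower (log2 fold change -1.22 (SE 0.34), adjusted p = 0.00606) at 0.268, 1.41 and 2.58 CPM with CsA and 0, 3.23 and 15.6 CPM in sham. The genes of let-7c and miR-99a-3p lie in 1 group of neighbours in the RefSeq annotation of Sscrofa11.1 (precursors within 10000 bases of the next), and these miRNAs moved in opposite directions. The more abundant arm of that precursor, miR-99a-5p, was not called (log2 0.023).

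The largest fitted decreases were those of 4 miRNAs, and for 3 of them the size depended on sham replicate 15. miR-10386, a miRNA named in pig, held 26.2, 48.5 and 207 CPM with CsA and 31.3, 334 and 13546 CPM in sham. It was 25.6-fold lower (log2 fold change -4.68 (SE 1.04), adjusted p = 0.00111), and 16.5-fold lower without sham replicate 16; 15 of 18 sham libraries were above every CsA library. miR-4332 held 2.77, 5.23 and 27.8 CPM and 2.68, 23.5 and 1324 CPM, 8.57-fold lower (log2 fold change -3.10 (SE 0.94), adjusted p = 0.0101) and 4.48-fold lower without sham replicate 15. miR-4331-3p held 1.85, 5.17 and 14.9 CPM and 2.93, 14.5 and 1277 CPM, 8.17-fold lower (log2 fold change -3.03 (SE 0.84), adjusted p = 0.00634) and 3.42-fold lower without sham replicate 15. The size of these folds thus leaned on the 2 shallowest sham libraries. miR-574-5p held 119, 180 and 235 CPM with CsA and 109.9, 258 and 15294 CPM in sham, 6.16-fold lower (log2 fold change -2.62 (SE 0.72), adjusted p = 0.00578). Without sham replicate 15 its fold was 1.73 and the adjusted p 0.0604, so that call rested on 1 library.

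The other 8 of the 12 largest decreases were more evenly spread over the libraries, and each kept its call in all 27 fits that left out 1 library. miR-423-5p, abundant in serum and in many tissues, held 244, 391 and 1052 CPM with CsA and 255, 1502 and 3693 CPM in sham, 3.19-fold lower (log2 fold change -1.68 (SE 0.36), adjusted p = 0.00111). miR-139-3p held 101, 192 and 485 CPM and 118, 606 and 1209.9 CPM, 2.78-fold lower (log2 fold change -1.48 (SE 0.31), adjusted p = 0.00111). miR-885-3p held 31.8, 46.2 and 139 CPM and 37.6, 209.7 and 498 CPM, 3.09-fold lower (log2 fold change -1.63 (SE 0.37), adjusted p = 0.00113). All 9 CsA libraries fell under the sham median for these 3, and 12 or 13 of the 18 sham libraries lay above the whole CsA range. miR-296-3p, of the imprinted GNAS locus, held 148, 218 and 515 CPM and 146, 612 and 1159 CPM, 2.33-fold lower (log2 fold change -1.22 (SE 0.29), adjusted p = 0.00186). miR-671-5p, which directs cleavage of the circular RNA CDR1as, held 19.2, 25.9 and 67.0 CPM and 23.7, 68.3 and 140.2 CPM, 2.27-fold lower (log2 fold change -1.18 (SE 0.26), adjusted p = 0.00111). The remaining 3, miR-92b-5p, miR-193a-5p and miR-1307, were 2.96-fold, 2.63-fold and 2.36-fold lower, with adjusted p of 0.00578, 0.00578 and 0.0025.

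**Figure D3:**
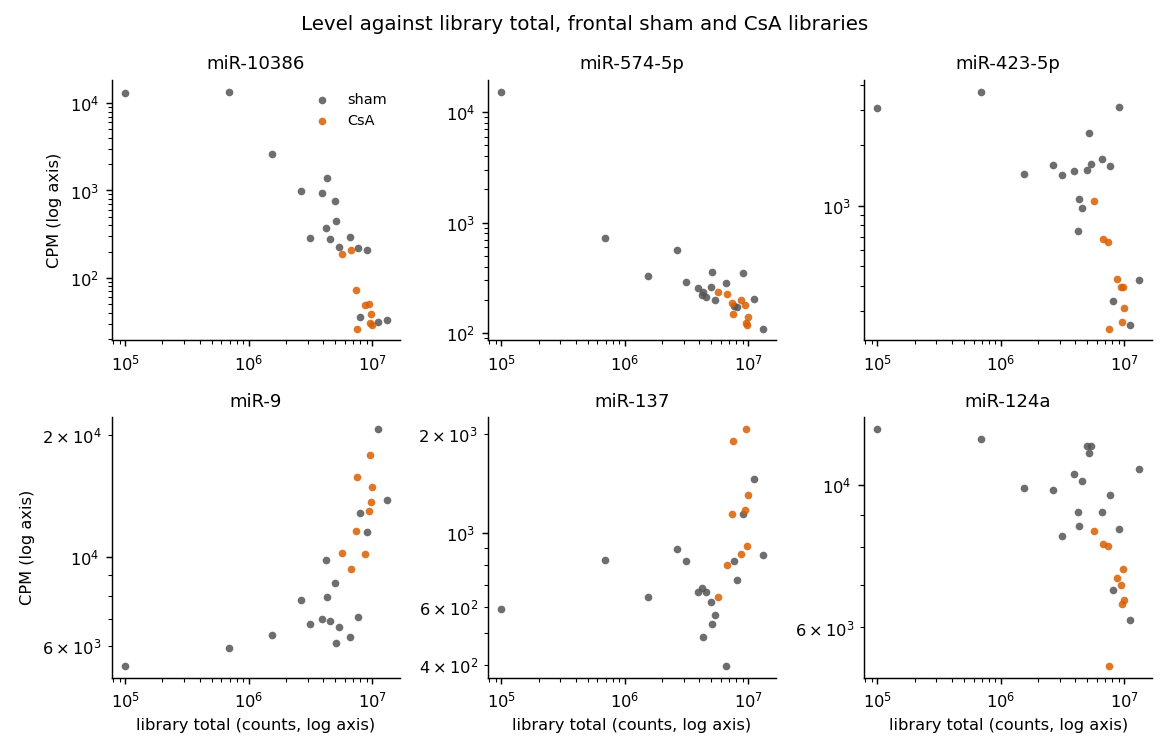
CPM (log y axis) of 6 miRNAs against library total (log x axis) in 18 sham and 9 CsA frontal libraries. miR-10386 and miR-574-5p decline over the whole range of totals, miR-9 climbs with it, and for miR-423-5p and miR-124a the CsA points lie among or under the sham libraries of similar total.

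Library total was related to some of these levels within sham alone. Over the 18 sham libraries, log CPM of miR-10386 fell as log total rose (Pearson r = -0.87, permutation p = 2e-05, the smallest these permutations can give; Spearman rho = -0.90, permutation p = 2e-05; adjusted p = 0.00024 and 0.00048 over 24 relations). Without the 2 libraries farthest from the median total, r was -0.85. miR-9 rose with the total (r = 0.62, permutation p = 4e-05, adjusted 0.00024; rho = 0.65, permutation p = 0.00478, adjusted 0.0229; r = 0.67 without the 2). Of the 24 miRNAs with the largest differences, 21 had an r of the same sign as their CsA minus sham difference, as had 219.0 of all 293.0 tested (74.7%), and both measures use the same sham libraries. Of the 24, 6 passed with both coefficients: miR-505 and miR-9, which rose with the total, and miR-10386, miR-4331-3p, miR-4332 and miR-574-5p, which fell with it. For miR-505 r fell to 0.39 without the 2, so it rests on them. By Pearson r alone more passed. Among the large decreases, all of these fell with the total. These included miR-671-5p (r = -0.60, adjusted permutation p = 0.00603), miR-423-5p (-0.56, 0.00888), miR-139-3p (-0.49, 0.015), miR-92b-5p (-0.59, 0.0271), miR-296-3p (-0.47, 0.0271) and miR-885-3p (-0.48, 0.0332). Their rho did not pass (adjusted permutation p = 0.235 for miR-671-5p and 0.273 for the others named). Among the large increases, miR-142-5p (r = 0.76, adjusted permutation p = 0.0344) and miR-212 (0.72, 0.0401) passed by Pearson r alone and rose with the total. For these rho did not pass (adjusted permutation p = 0.746 and 0.273). Without the 2 libraries farthest from the median total, r was -0.27 for miR-142-5p and 0.36 for miR-212.

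With log10 total as a covariate, 22 miRNAs passed, 4 higher and 18 lower, and all 100 kept their direction with a median of 0.680 of the size. Those that passed in that fit included miR-137 (log2 0.62, adjusted p = 0.0196), miR-574-3p (0.58, 0.0196), miR-451 (2.01, 0.0212) and miR-20a-3p (0.87, 0.0489) among the higher ones. Among the lower ones were miR-423-5p (-1.19, 0.0193), miR-139-3p (-1.11, 0.0193), miR-885-3p (-1.12, 0.0196), miR-22-3p (-0.49, 0.00836), miR-18b (-0.79, 0.0193), miR-219b-3p (-0.31, 0.0193), miR-124a (-0.32, 0.0427) and let-7e (-0.52, 0.0252). miR-9 was at 0.33 (adjusted p = 0.135), miR-374a-5p at 0.57 (adjusted p = 0.089) and miR-10386 at -1.26 (adjusted p = 0.062), no longer past the threshold. Within codes beginning with 11 none passed, with 73 at an unadjusted p under 0.05, and all 100 had the same direction. Within codes beginning with 12 or 13, where mean totals were alike, none passed, with 43 at an unadjusted p under 0.05. Single totals there ran from 7542892 to 10008390 counts with CsA and from 4231066 to 13194782 in sham. Of the 98 tested, 95 had the same direction, and the median size was 0.612 of the full comparison.

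Both arms of a precursor were tested for 57 pairs, and their ratio within a library needs no scaling to the library total. The ratio differed between CsA and sham in 20 pairs (35.1%; exact permutation test of the mean log2 ratio with a pseudocount of 1, adjusted over the 57), and 25 had an unadjusted p under 0.05. The ratios were added after the data were seen. In 5 pairs the arms were called in opposite directions, in 5 both moved in 1 direction, in 26 only 1 arm was called and in 21 neither was. Each of the 5 opposed pairs has an arm whose call single libraries end: miR-574-5p without sham replicate 15, miR-22-5p without any of 4 libraries named below, and miR-30b-5p and miR-30c-5p (a member of 2 pairs) in 15 and 11 of the 27 fits that left out 1 library. For miR-574 the log2 ratio of the 5p to the 3p arm was 3.36 ± 0.52 (SD, n = 9) with CsA and 4.81 ± 1.22 (SD, n = 18) in sham, a difference of -1.45 (exact permutation adjusted p = 0.00497), and -1.11 without sham replicates 15 and 16. The scarcer miR-574-3p was itself 1.48-fold higher, at 13.0, 16.5 and 25.7 CPM with CsA and 4.97, 10.3 and 31.1 CPM in sham (log2 fold change 0.57 (SE 0.15), adjusted p = 0.00578).

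For miR-22, a miRNA of neurons and heart, the ratio of the 5p to the 3p arm was -4.35 ± 0.54 (SD, n = 9) with CsA and -5.41 ± 0.80 (SD, n = 18) in sham, a difference of 1.06 (exact permutation adjusted p = 0.0101). The dominant miR-22-3p held 159.5, 244 and 284 CPM and 234, 338 and 494 CPM (log2 fold change -0.49 (SE 0.10), adjusted p = 0.00111), with 13 sham libraries above the CsA range. miR-22-5p held 8.25, 11.3 and 17.5 CPM and 0, 6.78 and 14.3 CPM (log2 fold change 0.60 (SE 0.22), adjusted p = 0.0307), a call lost without CsA replicate 1, 4 or 5 or sham replicate 2 (adjusted p up to 0.0845). The remaining opposed pairs were those of miR-30b and miR-30c. The ratio of miR-30b-5p to miR-30b-3p differed by 1.04 (exact permutation adjusted p = 0.0258, up to 0.0583 without CsA replicate 1, 4 or 5). That of miR-30c-5p to miR-30c-1-3p differed by 1.29 (exact permutation adjusted p = 0.0167), and that of miR-30c-5p to miR-30c-3p by 1.10 (exact permutation adjusted p = 0.0241, 0.0556 without CsA replicate 4). These 2 share the 5p reads of miR-30c and are not independent.

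In several pairs the 3p arm was called lower and the 5p arm was not called. The ratio of miR-139-5p to miR-139-3p was 3.89, 5.61 and 6.22 (lowest, median and highest) with CsA and 2.71, 3.67 and 5.93 in sham, a difference of 1.52 (exact permutation adjusted p = 0.00713). miR-885-5p over miR-885-3p was -2.16, -0.47 and 0.68 with CsA and -5.24, -2.91 and -0.21 in sham, a difference of 2.00 (exact permutation adjusted p = 0.00713). For miR-769 and miR-7134 the differences were 1.10 and 0.81 (exact permutation adjusted p = 0.00994 and 0.00497). For miR-142, where the 5p arm was called higher and the 3p arm was not called, the ratio differed by 0.70 (exact permutation adjusted p = 0.00713). Leaving out single libraries gave 15 to 24 such ratios. Within codes beginning with 11, and within those beginning with 12 or 13, no ratio passed (14 and 11 at an unadjusted p under 0.05), and all 20 kept their sign in both.

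**Figure D4:**
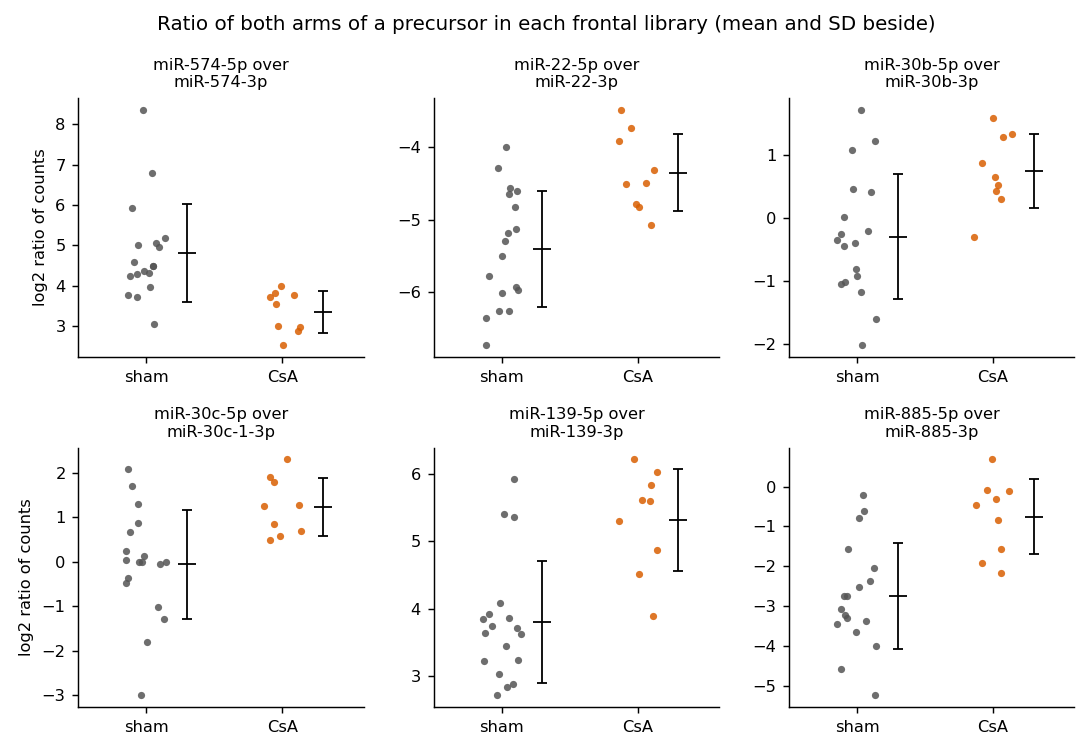
Log2 ratio of counts of the 5p to the 3p arm (y axis) of 6 precursors in each of 18 sham and 9 CsA frontal libraries, with the group mean and SD beside the points. The miR-574 ratio lies lower with CsA (3.36 against 4.81 in the mean), and the other 5 ratios lie higher.

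Set against untreated injury at 1 day, none of 293 miRNAs (0%) differed with CsA in edgeR's test, 5 had an unadjusted p under 0.05, and DESeq2 and limma voom called none either. These were miR-18b (log2 -0.50 (95% interval -0.90 to -0.10)), miR-1 (0.48 (95% interval 0.079 to 0.88)), miR-335 (0.40 (95% interval 0.039 to 0.76)), miR-153 (0.38 (95% interval 0.018 to 0.74)) and miR-296-5p (0.56 (95% interval 0.022 to 1.09)), each with an adjusted p of 0.959. For 259 of the 293 the 95% interval of CsA minus 1 day lay within a 2-fold change either way, and for 172 within a 1.5-fold change. Of the 100 miRNAs that differed from sham, 86 had such an interval within 2-fold and 53 within 1.5-fold. A p that misses the threshold does not show equal levels, and for the remaining miRNAs a difference of 2-fold or more lay inside the interval. The differences were 0.18 (95% interval -0.20 to 0.56) for miR-137, -0.089 (95% interval -0.48 to 0.30) for miR-9, -0.015 (95% interval -0.25 to 0.22) for miR-124a and -0.12 (95% interval -0.30 to 0.065) for miR-219b-3p. They were wide for miR-10386 (0.85 (95% interval -0.97 to 2.67)) and miR-451 (0.90 (95% interval -0.22 to 2.03)). Both comparisons with sham share the sham libraries: 1 day minus sham gave 0.51 for miR-137, 0.65 for miR-9, -0.43 for miR-124a, -1.96 for miR-423-5p and -5.53 for miR-10386, beside 0.69, 0.56, -0.44, -1.68 and -4.68 with CsA. The 1 day codes, like the CsA codes, all carry the letter U and begin with 11, 12 or 13. The 1 day libraries held 5857491 to 12413430 counts, beside 5671999 to 10008390 with CsA. In code and depth these 2 groups were thus closer to each other than to sham, and the part of this was not tested.

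Libraries of hippocampus with amygdala were made for 10 CsA and 18 sham animals, which include the 9 and 18 of the frontal lobe. Tested as an interaction with the animal as a block (52 animals with both regions), the CsA minus sham difference of the frontal lobe differed from that of hippocampus and amygdala for none of 307 miRNAs (0%), with 75 at an unadjusted p under 0.05 and the smallest adjusted p at 0.0702. In hippocampus and amygdala the log2 difference was 0.23 for miR-137 (adjusted p = 0.209), 0.48 for miR-9 (0.0135), -0.16 for miR-124a (0.323), -0.35 for miR-219b-3p (0.0204), -0.61 for let-7e (0.00825) and -3.90 for miR-10386 (0.000566). The interactions nearest to the threshold were miR-7134-3p at -0.82 (95% interval -1.26 to -0.38), miR-126-5p at 0.60 (95% interval 0.27 to 0.94), miR-7-5p at 0.57 (95% interval 0.24 to 0.90), miR-374a-3p at 0.76 (95% interval 0.31 to 1.20) and miR-1 at 0.83 (95% interval 0.33 to 1.34), each as frontal minus hippocampus and amygdala. For miR-374a-3p the regions read 0.58 and -0.043, and for miR-7134-3p -1.06 and -0.16. miR-423-5p and miR-139-3p had intervals below 0 as well, -0.91 (95% interval -1.55 to -0.27) and -0.81 (95% interval -1.34 to -0.28), with adjusted p of 0.0868 and 0.0762.

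**Figure D5:**
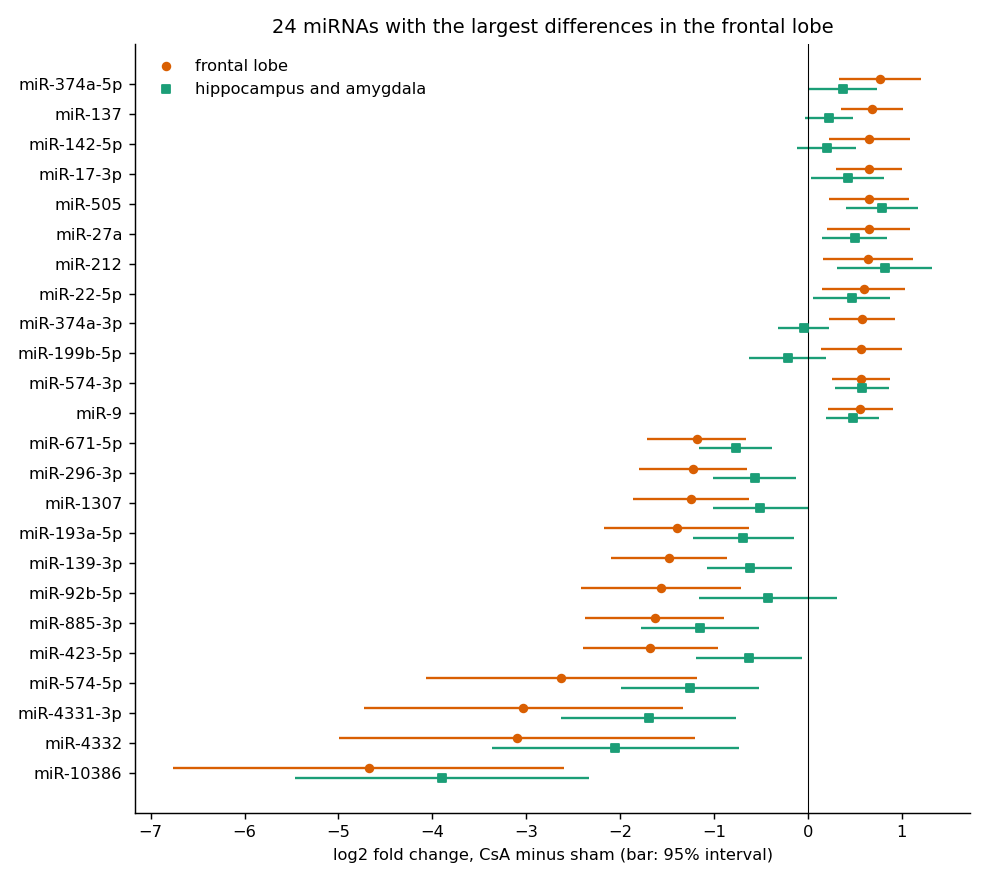
Log2 fold change of CsA minus sham (x axis, bars are 95% intervals) of the 12 largest increases and 12 largest decreases of the frontal lobe, in the frontal lobe (circles) and in hippocampus and amygdala (squares). All 12 decreases lie left of 0 in both regions, and miR-374a-3p and miR-199b-5p lie right of 0 in the frontal lobe and at -0.043 and -0.21 in hippocampus and amygdala.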

How the data were processed

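Small RNA was extracted from fixed brain tissue with the Mag-Bind FFPE RNA kit and sequenced from QIAseq miRNA libraries, per the labels' protocols. Trimmomatic 0.39 and cutadapt 1.9.1 are named in the submitters' processing notes. No aligner or build is named, and whether reads were collapsed by molecular identifier is not stated in the labels. The authors deposited raw counts per mature miRNA and precursor in 1 table of 542 entries, of which 89 were at 0 in all libraries. From these, 1 entry was kept per mature name (457 names, the entry of highest total). Several names hold nearly the same reads (miR-9, miR-9-1 and miR-9-2; miR-339 and miR-4334-3p; miR-218 and miR-218b; miR-199a-3p and miR-199b-3p, among others).

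All 52 frontal libraries were fitted in 1 model of 4 groups with edgeR 4.0.16 in R 4.3.3 (TMM factors, filterByExpr with a minimum count of 10 and a minimum total of 15, robust quasi-likelihood test, Benjamini-Hochberg adjustment, threshold 0.05). Library totals, let-7 shares, detected names and arm ratios were compared by exact permutation, 2-sided, and relations with the total by 100000 permutations (Python 3.11.15, scipy 1.17.1). DESeq2 1.42.0 and limma 3.58.1 served as alternatives. In simulated data with 279 miRNAs the frontal CsA minus sham fit recovered 55% of 1.5-fold, 95% of 2-fold and 100% of 3-fold changes, with 1 false call among 220 unchanged. That simulation held the CsA and sham libraries alone, without the untreated injured groups. Levels in it had no relation to library total, so it cannot give the false calls where depth moves with the group. Depth was 98996 to 13194782 counts. Counting error is smallest in the deepest libraries. Replicates are animals by their codes, and p-values of group differences set the difference against the spread between animals. In the main fit that spread was estimated over all 4 frontal groups.

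Members and lists were chosen with earlier results of these data known. Named miRNAs are the 12 largest increases and 12 largest decreases among those past the threshold with a mean of at least 10 CPM and the same sign under 2 other scalings, a panel of injury and cell-type miRNAs, the 5 most abundant, the smallest p of the other comparisons, called members and the most abundant member of each list, and arms called in opposite directions. The arm ratios, and the miRNAs named for passing with total as a covariate, were chosen after their values were seen. Shared seeds were not analysed here.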

Additional observations from a re-analysis of the deposited data

Results flagged for a closer look

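In 53 groups of 9 CsA libraries, 1 miRNA or library measure each, the highest or lowest library was tested for its distance from the others, and 10 stood apart. The limit used gives about 1 in 20 for independent, normally distributed values. These measures come from the same 9 libraries and are not independent, so the 10 cannot be set against that rate. CsA replicate 5 was highest for miR-142-5p at 69.7 CPM, miR-142-3p at 58.1 CPM, miR-21-5p at 220.3 CPM and miR-146a-5p at 4.20 CPM, and lowest for let-7a at 217443 CPM. CsA replicate 9 was highest for miR-4331-3p at 14.9 CPM, miR-92b-5p at 10.8 CPM, miR-296-3p at 515 CPM and miR-671-5p at 67.0 CPM, all of them miRNAs that were lower with CsA. CsA replicate 4 was highest for miR-574-3p at 25.7 CPM. Without CsA replicate 5 the log2 difference of miR-146a-5p was -0.31 and that of miR-142-5p no longer passed. Causes were not tested.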

How the results depend on the processing

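No paired analysis was possible because frontal CsA and sham libraries come from different animals and share no replicate pairing. For the difference between regions, whose fit holds the animal as a block, the fit with no replicate block also called 0 miRNAs, with 62 at an unadjusted p under 0.05. The 100 calls of CsA minus sham fell to 71 (26 higher, 45 lower) when only the CsA and sham libraries were fitted. They fell to 22 with log10 total as a covariate and to 19 among libraries whose totals lie in the range of both groups (9 CsA, 4 sham). Within codes beginning with 11 they fell to 0 and within codes beginning with 12 or 13 to 0, fits with fewer animals. They rose to 128 with 1 animal per code stem and to 140 (77 higher, 63 lower) against only sham codes with the letter U. Leaving out single libraries gave 71 (without CsA replicate 4) to 123 (without sham replicate 9). The share of higher among the calls was 42% with TMM, 52.9% with RLE and 54.4% with DESeq2. Within codes beginning with 12 or 13 the total ratio was 1.06 and the let-7 difference -2.22. Arm ratios called were 0 within codes beginning with 11, 0 within 12 or 13, and 31 against sham codes with the letter U. CsA minus 1 day gave 0 calls in all alternatives run.

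Log2 differences that missed the threshold changed sign as follows. With log10 total as a covariate miR-146a-5p was -0.16, miR-146b -0.052, miR-142-3p 0.037, miR-126-3p -0.051 and let-7g -0.038. With RLE, DESeq2 and voom miR-142-3p was 0.0064, 0.0067 and 0.0047; with RLE and DESeq2 let-7f-5p was 0.038 and 0.038; with voom miR-146a-5p was -0.042; with no filter let-7f-5p was 0.016. With 1 animal per code stem miR-142-3p was 0.079 and let-7f-5p 0.053. Within codes beginning with 11 miR-155-5p was -0.014, miR-146a-5p -0.31 and let-7f-5p 0.088. Within 12 or 13 miR-142-3p was 0.075, miR-219a -0.12 and let-7g -0.11. Against letter U sham miR-155-5p was -0.12 and miR-219a -0.31. Among totals in the range of both, miR-146a-5p was -0.38, miR-142-3p 0.059, miR-126-3p -0.13, miR-210 -0.018 and let-7g -0.084. Leaving out single libraries gave -0.022 to 0.095 for miR-155-5p, -0.31 to 0.16 for miR-146a-5p, -0.20 to 0.033 for miR-142-3p, -0.016 to 0.20 for miR-219a, -0.089 to 0.024 for let-7f-5p and -0.020 to 0.13 for let-7g. The cause was not tested. Over single named miRNAs, 583 values kept direction and side, 128 no longer passed, 12 newly passed and 27 changed sign, beside 1295, 35, 25 and 22 when single libraries were left out. Depth limits the scarce miRNAs most in sham replicates 15 and 16.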
